A study of Bos taurus with 8 samples.

Results

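Transcript levels at a regenerating-protein locus were examined in cattle, in a window of 300 kb on chromosome 11 of the UMD3.1 assembly taken as the region of the REG3-type secreted lectins. All loci that carry an Ensembl transcript identifier and lie in this window were taken, which gave 2 of the 24886 loci with an identifier in the table. The window also held 1 locus without an identifier. The window was chosen because 1 of its loci, ENSBTAT00000009389, has its peak in ileum, so its levels are given as a description and no test was run on them. RNA-Seq libraries were available for 8 cattle tissues, with 1 library each. From the digestive tract these were rumen, abomasum and ileum, and the others were intercaruncular uterus, parenchyma of the mammary gland, whole testes, nucleated blood cells and frontal cortex. The labels give no treatment, age or sex for these libraries. The study took its tissues from a Hereford cow and relatives of hers, and the samples it listed for methylation were juvenile for ileum, abomasum, mammary gland and frontal cortex, adult for testes, uterus and blood cells, and fetal for rumen. The methods describe the RNA as coming from a collection similar to that of an earlier atlas, so it was not established here that these stages hold for each RNA library. Differences between tissues therefore have no replicate check and cannot be told apart from differences between animals or stages.

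Regenerating proteins are small secreted proteins of the C-type lectin family. The REG3 members are made by epithelial cells of the small intestine, including Paneth cells and enterocytes, and some bind the cell wall of bacteria and help to keep bacteria away from the intestinal surface. Members of the family are also known from the exocrine pancreas, a tissue that is not among the 8 studied here. The ileum, the last segment of the small intestine, is lined by such an epithelium, whereas the abomasum is the glandular stomach and the rumen is a forestomach with a stratified epithelium.

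The table does not pair identifiers with gene symbols, and 0 of its 26547 identifiers matched an entry of the genes that RefSeq lists for assembly ARS-UCD2.0, so the name of the locus rests on indirect evidence. ENSBTAT00000009389 spans 2959 bases on chromosome 11, from 56528811 to 56531769. RefSeq holds exactly 1 gene on chromosome 11 with a span of 2959 bases, and this is the protein-coding gene REG3G. Over all chromosomes 2 RefSeq genes have this span, so a gene elsewhere shares it. Such a match to exactly 1 gene was found for 753 (3.60%) of the 20889 loci with an identifier that span at least 1000 bases. RefSeq lists REG3A as the next protein-coding gene after REG3G, with a span of 2819 bases. The other locus of the window, ENSBTAT00000015040, spans 2750 bases, from 56639963 to 56642712, and 0 RefSeq genes on this chromosome have that span. The match used only chromosome and span, so both loci are called by their identifiers here. Marker genes of intestinal cell types could not be looked up for the same reason, and the label of the ileum library was not checked against them.

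The level of ENSBTAT00000009389 was given in FPKM, fragments per kilobase of transcript scaled to the number of mapped fragments. It was 3171 FPKM in ileum and 1.97 FPKM in whole testes. It was 0.512 FPKM in mammary gland. The locus was listed at 0 in the 5 remaining tissues, which were rumen, abomasum, uterus, frontal cortex and nucleated blood cells. Of its FPKM summed over the 8 libraries, 99.9% fell in ileum and 0.0783% in the other libraries together. The abomasum and the rumen, the other parts of the digestive tract in the series, were both among the tissues listed at 0.

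**Figure D1:**
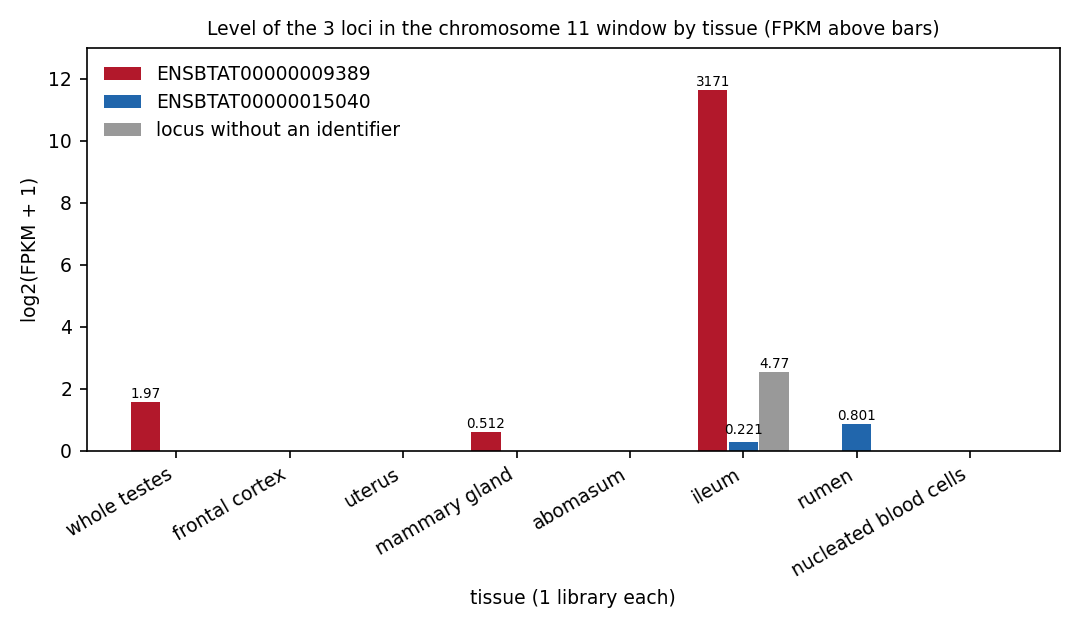
Level of the 3 loci in the chromosome 11 window in each of the 8 tissue libraries, as log2(FPKM + 1), with the FPKM printed above each bar and no bar where a locus was listed at 0. ENSBTAT00000009389 stands at 3171 FPKM in ileum, 1.97 in whole testes and 0.512 in mammary gland, and the other loci stay below 5 FPKM in all libraries.

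The reads behind these values were estimated from the scaled depth recovered for each library, which was lowest in mammary gland (6021000 reads) and highest in rumen (15511000 reads). The transcript length is not in the table, so read numbers are given for a transcript of 1000 bases and for one that fills the whole span of 2959 bases, the longest that the locus could hold. On 1000 bases, the ileum level of ENSBTAT00000009389 corresponded to about 17358 reads, with a 95% exact Poisson interval of 3124 to 3218 FPKM. The testis level corresponded to about 14.8 reads, with an interval of 1.10 to 3.26 FPKM. The mammary level corresponded to about 2.25 reads, with an interval of 0.0740 to 1.73 FPKM. The intervals of testes and mammary gland overlapped. On a transcript that fills the span, the same levels corresponded to at most 60492 reads in ileum, 51.7 in testes and 7.85 in mammary gland, and the intervals of testes (1.47 to 2.59 FPKM) and mammary gland (0.219 to 1.01 FPKM) then did not overlap. These intervals cover counting error only, not the spread between animals or libraries. Their overlap is not a test of a difference and does not show that levels are equal.

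For the tissues listed at 0, a floor of 3 reads, the one-sided 95% limit at a count of 0, was set against the levels above 0. On a transcript of 1000 bases the floor was 0.264 FPKM in rumen, 0.307 in abomasum, 0.342 in nucleated blood cells, 0.406 in uterus and 0.442 in frontal cortex. All of these floors lay below the testis level of ENSBTAT00000009389. The mammary level of 0.512 FPKM also lay above them, but its interval on that length reached below them, and it was under the floor of its own library, 0.681 FPKM. A zero can also be a failed estimate, but 0 of the 84 entries of the table at the 3 loci of the window were marked as failed or as holding too much data. Loci with at least 10 FPKM in all other tissues were listed at 0 in 14 of 3743 cases in nucleated blood cells, and in at most 1 case in each other library. These counts cover only loci that are abundant in all other tissues. They cannot judge a zero at a locus that is low outside ileum, such as ENSBTAT00000009389. On a transcript that fills the span, the mammary interval of 0.219 to 1.01 FPKM lay above the floors of the 5 tissues, which were then 0.0759 to 0.127 FPKM. Whether mammary gland stood above the tissues listed at 0 beyond counting error thus depends on the transcript length.

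ENSBTAT00000009389 was then compared with all loci with an identifier, to place its level and its tissue profile. In ileum it ranked 27 among 24886 loci, and it held 0.391% of the summed FPKM of that library. The median over the 13163 loci with at least 1 FPKM in ileum was 11.1 FPKM. In whole testes the locus ranked 13161 and in mammary gland 13618, in the lower part of the 17353 and 15377 loci above 0 in these libraries. The FPKM in ileum was 1607 times that in whole testes, the next tissue. With 1 FPKM added to both values, which lowers the fold of loci near 0, the fold was 1067. Without the testis library the next tissue was mammary gland, and this fold rose to 2098. The tau index, which is 0 where all tissues are equal and 1 where a single tissue holds all transcripts, was 0.973 on the log2(FPKM + 1) scale, against a median of 0.436 over the 17484 loci with at least 1 FPKM in some tissue. In that set, 1384 loci had a higher tau.

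A locus was counted as peaking in ileum where it had at least 1 FPKM there and a fold over the next tissue of at least 5 on the scale of FPKM + 1. This held for 102 of the 24886 loci (0.410%), ENSBTAT00000009389 included, and the window had been chosen on this same contrast. The second member, ENSBTAT00000015040, was not among them. By fold, ENSBTAT00000009389 ranked 2 among the 102 loci, whose median fold was 12.1. By FPKM in ileum it ranked 3 among them, below loci at 6356 and 4791 FPKM and above the next at 2846 FPKM. The median of the 102 loci in ileum was 44.6 FPKM. A fold of at least 100 was found for 12 of the 102 loci, and 20 of them were listed at 0 in all tissues except ileum. The rank of ENSBTAT00000009389 by fold is approximate, since its fold rests on about 14.8 testis reads on a transcript of 1000 bases.

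**Figure D2:**
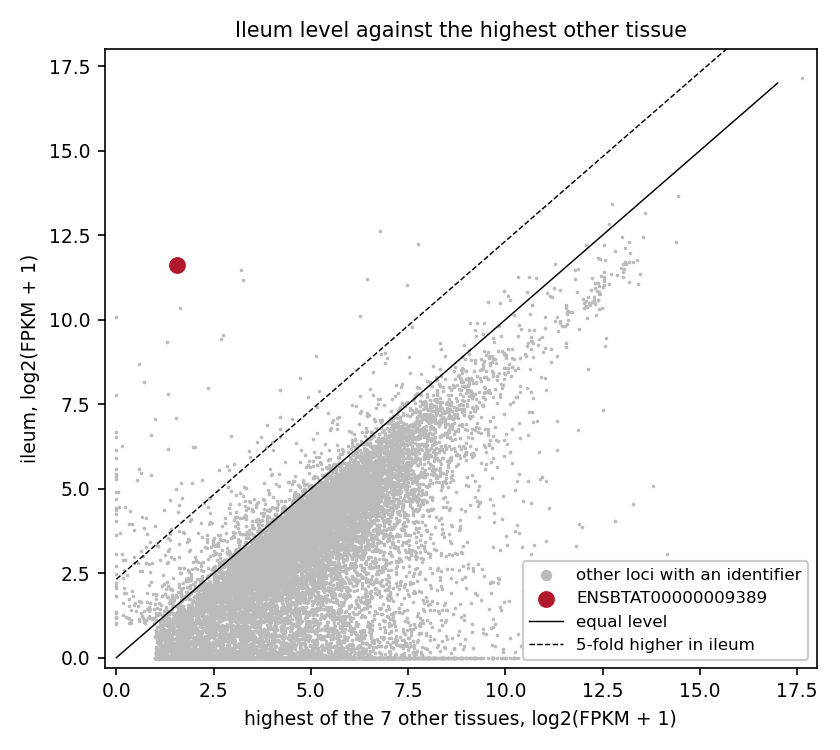
FPKM in ileum against the highest FPKM among the 7 other tissues for the 17484 loci with an identifier and at least 1 FPKM in some tissue, both as log2(FPKM + 1), with lines for equal levels and for a level 5 times higher in ileum. ENSBTAT00000009389 (red) lies at 3171 FPKM in ileum and 1.97 FPKM in the next tissue, far above both lines.

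Peaks in the other tissues were used to judge the size of this fold. The same criterion, applied to each tissue in turn, gave 3018 loci with a peak in some tissue and a median fold of 12.4. ENSBTAT00000009389 ranked 19 among them by fold and 33 by the FPKM in the tissue of its peak. A fold of at least 1000 was reached by 20 of the 3018 loci. Of the 18 loci with a higher fold, 6 peaked in abomasum, 4 in whole testes, 4 in rumen, 2 in mammary gland, 1 in frontal cortex and 1 in ileum. The rank of 19 is approximate, since the fold of ENSBTAT00000009389 rests on few testis reads.

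The level of ENSBTAT00000009389 was also set beside those of the most abundant loci of the ileum library. Of the 50 loci with the highest FPKM in ileum, 6 peaked in ileum by the criterion above, including ENSBTAT00000009389. Among these 50 loci it had the highest fold over the next tissue, 10.06 on the log2 scale. The next highest was 8.27 on the log2 scale, at a locus with 2846 FPKM in ileum and 8.22 FPKM in the next tissue. The loci directly above and below ENSBTAT00000009389 in the order of ileum levels, at 3182 and 2969 FPKM, reached 2489 and 7973 FPKM in another tissue.

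**Figure D3:**
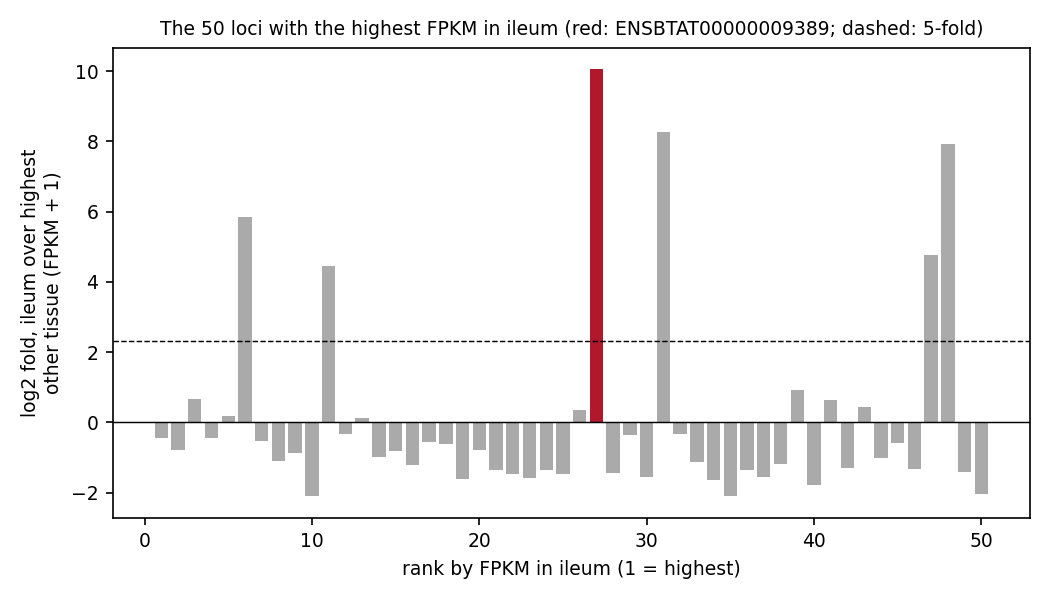
The 50 loci with the highest FPKM in ileum in order of rank, with the log2 fold of ileum over the highest other tissue, 1 FPKM added to both values, and a dashed line at a fold of 5. The bar of ENSBTAT00000009389 (red, rank 27) reaches 10.06, the highest of the 50, and 6 bars pass the dashed line.

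The second locus of the window, ENSBTAT00000015040, was low in all libraries. It lies 108 kb beyond the end of ENSBTAT00000009389. Its level was 0.801 FPKM in rumen and 0.221 FPKM in ileum, and it was listed at 0 in the 6 other libraries. On a transcript of 1000 bases these levels corresponded to about 9.09 reads in rumen and 1.21 reads in ileum, with 95% exact Poisson intervals of 0.368 to 1.52 FPKM and 0.00964 to 1.08 FPKM, which overlapped. The ileum level was below the floor of 0.548 FPKM that 3 reads set in that library. On a transcript that fills the span the levels corresponded to at most 29.3 reads in rumen and 3.89 in ileum, with intervals of 0.538 to 1.15 FPKM and 0.0588 to 0.572 FPKM, which still overlapped, and the ileum level was above its floor of 0.170 FPKM. The overlap of these intervals does not show that rumen and ileum are equal, and their difference was not tested. Both loci are of similar span, and their ileum levels, which are per length of transcript, were 3171 and 0.221 FPKM. Near-identical members of a gene family can share reads, and how the authors' counting divided such reads between these loci is not known.

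The locus without an identifier lies 35.0 kb before the start of ENSBTAT00000009389 and spans 513 bases, from 56493260 to 56493772. Its level was 4.77 FPKM in ileum, and it was listed at 0 in the 7 other tissues. With its span taken as the transcript, the level corresponded to 9.98 reads, with a 95% exact Poisson interval of 2.29 to 8.78 FPKM. The floor of 3 reads in the other libraries ranged from 0.692 FPKM in rumen to 1.78 FPKM in mammary gland. The ileum level was above each of these floors. Whether these reads belong to a separate transcript was not tested.

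The nearest locus with an identifier outside the window was ENSBTAT00000062254 on the left, 609 kb from ENSBTAT00000009389, and ENSBTAT00000060042 on the right, 332 kb from it. Both span little more than 100 bases and were listed at 0 in all 8 libraries. Of the 10 loci with an identifier within 1000 kb of ENSBTAT00000009389, itself included, it was the only 1 with at least 1 FPKM in ileum. Over the whole table, 13163 of the 24886 loci with an identifier had at least 1 FPKM in ileum. Most of the other loci within 1000 kb were listed at 0 in all 8 libraries, and some share the coordinates of a locus on the left. The count therefore says little about ileum in particular. The nearest loci with an identifier outside the window that were above 0 were chosen after their values were seen. On the right this was ENSBTAT00000000484, 1900 kb away, with at most 2.27 FPKM, in frontal cortex, and 0 in ileum. Nearer on the right, 2 loci without an identifier, 716 and 718 kb from the start of ENSBTAT00000009389, were listed at 0 in ileum and reached 2.95 and 4.86 in another tissue on the log2(FPKM + 1) scale. On the left the nearest locus lies 622 kb away and holds ENSBTAT00000044898 and ENSBTAT00000064988. The left locus was highest in frontal cortex (48.5 FPKM) and whole testes (37.9 FPKM), and it stood at 0.912 FPKM in ileum.

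**Figure D4:**
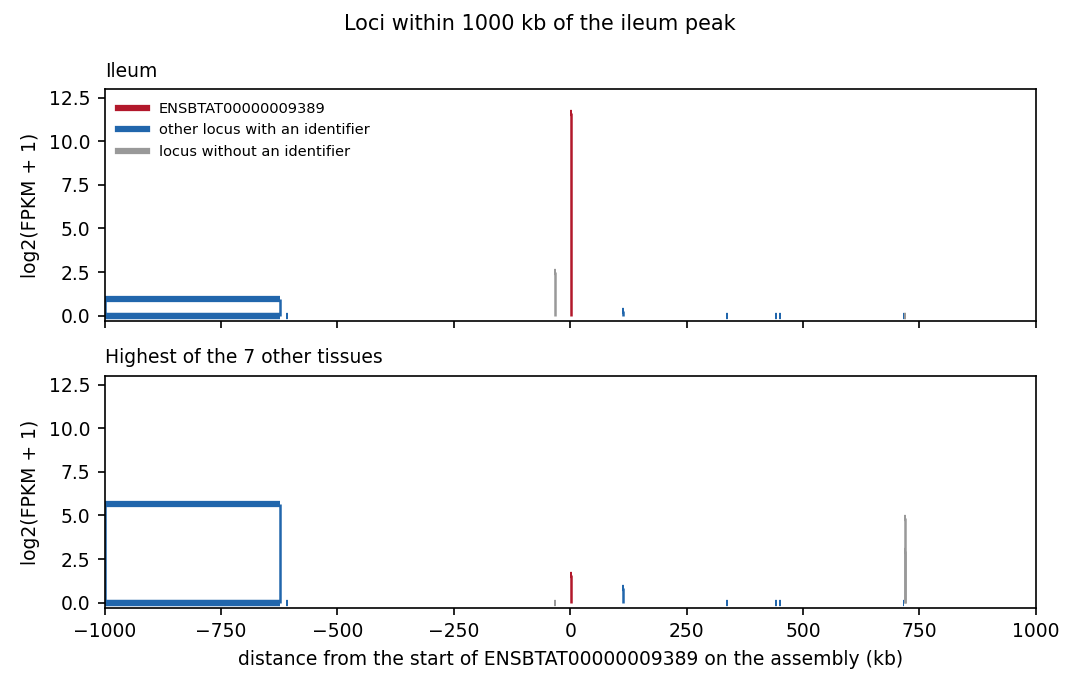
Loci of the table within 1000 kb of the start of ENSBTAT00000009389, placed by distance in kb, with the level in ileum (upper panel) and the highest level among the 7 other tissues (lower panel) as log2(FPKM + 1). The red line at 0 kb reaches 3171 FPKM in ileum and 1.97 FPKM in the lower panel, and in the lower panel the wide locus on the left reaches 48.5 FPKM and 2 loci without an identifier on the right reach 2.95 and 4.86 on the log2 scale.

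Loci with a tissue profile most like that of ENSBTAT00000009389 were sought among the 13162 other loci with at least 1 FPKM in ileum. Likeness was measured by the share of the summed FPKM that each tissue held, with the absolute differences summed over the 8 tissues. By this measure the closest was ENSBTAT00000023081 on chromosome 3 (57643206 to 57674223), with a summed difference of 0.0322 percentage points. Its level was 28.6 FPKM in ileum and 0.0223 FPKM in whole testes, and it was listed at 0 in the 6 other tissues. The next distance, 0.157 percentage points, was shared by 31 loci, which were listed at 0 in all tissues except ileum. The most abundant of these was ENSBTAT00000062001 on chromosome 19 (23213543 to 23249455), with 1078 FPKM in ileum. This locus was also the only 1 of the 102 loci peaking in ileum that had a higher fold than ENSBTAT00000009389, at 1079 on the scale of FPKM + 1. The counting error of the testis level does not resolve the order of 1079 and the fold of 1067 of ENSBTAT00000009389. Across the 8 libraries, the Pearson r of log2(FPKM + 1) with ENSBTAT00000009389 was 0.991 for both loci, and it rests on the ileum library, since the other libraries were at or near 0. An r of at least 0.99 was found for 48 of the 13162 loci. Ranked by r, the closest were 2 different loci, ENSBTAT00000035552 (r = 0.999, 41.8 FPKM in ileum) and ENSBTAT00000028325 (r = 0.9985, 1.40 FPKM in ileum), so the choice of the closest loci depends on the measure.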

How the data were processed

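The authors filtered single-end RNA-Seq reads from 8 tissues, aligned them to UMD3.1 with TopHat (version 2.0.13 per the labels) and estimated levels with Cufflinks, with default settings. The deposited table, in the layout of Cuffdiff, holds FPKM for 36801 loci in 28 pairs of tissues, and 0 FPKM values differed between pairs. It also holds the authors' own fold changes and tests between tissues, which were not used, and a status per comparison, read only for failed estimates. Of the loci, 11915 had no identifier.

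The members, lists and thresholds were chosen with earlier results of these data known. The loci named are those in the window, the nearest locus with an identifier on each side, and the 2 with the closest tissue shares, ties going to the higher ileum FPKM. The nearest locus above 0 outside the window on each side, and the 2 closest by Pearson r, were added after their values were seen. With 1 library per tissue no test was run.

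Scaled depth was recovered from loci of 88 to 130 bases without an identifier. Fragment lengths were taken as normal, with a mean of 200 bases, an SD of 80 and a lower limit of 87. The smallest depth at which at least 95% of values came within 0.03 of whole reads was found, and the best depth near it was taken. It gave whole reads for 97.7% to 100% of these loci. The choice of this model came after the values were seen. The recovered depth follows the scaling of the authors' software and may differ from the mapped reads, and read numbers at loci with an identifier are approximate. Python 3.11.15, pandas 2.3.3 and SciPy 1.17.1 were used, and the functions were tested on simulated data.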

Additional observations from a re-analysis of the deposited data

How the results depend on the processing

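Values within a factor of 1.5 of the reported one were counted as holding. The fold of ENSBTAT00000009389 in ileum over the next tissue held in 10 of 11 alternatives (1035 to 1599), which covered pseudocounts, rescaled libraries and the removal of each other tissue. Without 1 of the other libraries it ranged from 1067 to 2098, the latter without whole testes, and leaving out any of the others could not change it. Its tau ranged from 0.896 to 0.991 over 12 alternatives, but tau cannot exceed 1 and was 0.937 even without the ileum library, so this range says nothing about the stability of the ileum peak. Its rank in ileum was 31 among all loci. Its rank by fold among loci peaking in ileum was 3 with a pseudocount of 0.1, and the other alternatives could not change it. The number of loci peaking in ileum was 245 at a fold of at least 2 and 59 at a fold of at least 10, by construction, 145 with a pseudocount of 0.1 and 100 at an FPKM of at least 5. Leaving out the filter on low values could not change the count, since a fold of 5 already requires more than 1 FPKM. With Pearson r as the measure of likeness, 0 of the 2 closest loci were shared with those named. No paired analysis was possible because there was a single library per tissue. Depth and the unknown transcript length limit statements on the mammary gland and on the second locus of the window, whose levels rest on few reads.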
